A study of Mus musculus with 2 samples.

Results

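Epidermal growth factor (EGF) receptor signalling was followed here through 6 genes: the receptor Egfr and the 5 ligand genes Ereg, Areg, Hbegf, Tgfa and Btc. They were taken by gene symbol from the 32285 features that both libraries list, and all 6 were found. The 2 libraries are single-cell RNA sequencing libraries of the stromovascular fraction, the non-adipocyte cells, of mouse perigonadal white adipose tissue (gWAT). The mice were male Cyp1a1Cre x R26LSL-eYFP fate reporters, and live eYFP+ cells were sorted. In this line a cell that switches on Cyp1a1 recombines a stop cassette and keeps eYFP from then on. Cyp1a1 responds to the aryl hydrocarbon receptor (AHR), a sensor of dietary and environmental ligands. eYFP therefore marks a past event and not present Cyp1a1 expression. The LFD library came from mice on a low-fat diet (10% fat) and the HFD library from mice on a high-fat diet (60% fat), both for 12 weeks. All mice had FICZ, which activates AHR, injected (10 mg/kg) with 5 days left until the tissue was taken, so the comparison is of diets on a shared FICZ background and holds no untreated group. Each diet has 1 library made from pooled mice, and mice within a diet cannot be told apart.

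EGF receptor ligands are made as membrane-anchored precursors, and metalloproteases of the ADAM family release them. They act on the cell that made them or on its neighbours. The bound receptor signals through RAS and the ERK kinases, which induce their own inhibitors, the Sprouty proteins and the dual-specificity phosphatases. Areg (amphiregulin) is known from group 2 innate lymphoid cells (ILC2) and regulatory T cells in tissue repair, and Tgfa, Btc (betacellulin), Ereg (epiregulin) and Hbegf (heparin-binding EGF-like growth factor) are best known from epithelia.

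Of 11281 barcodes (LFD) and 9631 (HFD), 9294 and 7879 cells were kept, with a median of 10223 and 12722 UMIs per cell; a UMI is 1 counted RNA molecule. The libraries shared 27 barcodes. Cells fell into 22 clusters, and 21 were named from marker genes, so each name reads as "-like". Levels are given in CPM, the UMIs of a gene per 1000000 UMIs of all genes in a cell type of 1 library, and 16 types reached 50 cells on each diet. With 1 library per diet there is no replicate check and no test: the intervals in brackets are exact 95% intervals for counting error only, and mouse-to-mouse spread is unknown.

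Wt1-positive stromal cells, named for the transcription factor gene Wt1, numbered 3634 in LFD and 1689 in HFD. Wt1 itself does not set them apart: it stood at 299 CPM (LFD) and 333 CPM (HFD) in them, at 325 and 373 CPM in mesothelial cells and at 190 and 200.2 CPM in fibroblastic adipose progenitors (APC). Mesothelial cells, which line the fat pad, numbered 1151 and 1172, and this pair of types was the largest in both libraries. The mesothelial keratin gene Krt19 stood at 375 CPM (LFD) and 475 CPM (HFD), against 20.7 and 66.4 CPM in Wt1-positive stromal cells. APC numbered 212 and 561 and held Krt19 at 1.31 and 1.83 CPM. A pair of cycling stromal clusters, numbered 8 (494 and 326 cells) and 11 (417 and 244 cells), was kept apart, because the leading genes of cluster 11 included a mesothelial keratin and no marker of the Wt1 list. ILC2 numbered 111 and 101. They held Il5 at 961 and 574 CPM and Il13 at 682 and 386 CPM, and Cd3e at 3.22 CPM in LFD and at 0 in HFD. Other T cell markers were present: the 8 of the list summed to 571 and 611 CPM in ILC2, against 2684 and 2776 CPM in T cells. No UMI of a Cd3 gene was found in 92 of the 111 LFD and 90 of the 101 HFD ILC2. T cells, 87 and 77, held Cd3e at 235 and 198 CPM and no UMI of Il5 or Il13. They did hold the ILC2 marker Il1rl1, at 211 and 223 CPM. The 9 ILC2 markers summed to 1388 and 1573 CPM in T cells and to 5708 and 6364 CPM in ILC2. The 6 markers of natural killer cells summed to 2005 CPM in LFD T cells and to 185 CPM in HFD T cells. The part of this difference in their Areg was not tested. The classes rest on integration of the libraries. Without it, cells of the diets fell unevenly into the clusters of a name: the 3 Wt1-positive stromal clusters held 1292, 1743 and 1075 LFD cells against 1315, 53 and 127 HFD cells, and the 2 mesothelial clusters 496 and 145 against 1380 and 2. A ratio between diets within such a class therefore compares cells that differ in more than the members. The members were left out when cells were clustered. Ereg was nevertheless among the 10 leading genes of 1 Wt1-positive stromal cluster, and Areg among those of the ILC2.

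Promoters are shown for the members that the RefSeq table of build GRCm38.p6 holds, 4 of 6, because Areg, Tgfa and Btc stood higher in HFD stromal cells than in LFD stromal cells while Egfr did not. Each is the 250 bases before the gene's start, 5′ to 3′ on the gene's strand. Areg is at chr5:91139349-91139598 on the plus strand, Btc at chr5:91402995-91403244 on the minus strand, Tgfa at chr6:86194972-86195221 and Egfr at chr11:16751953-16752202, both on the plus strand. Capitals mark the motifs found on either strand.
Areg: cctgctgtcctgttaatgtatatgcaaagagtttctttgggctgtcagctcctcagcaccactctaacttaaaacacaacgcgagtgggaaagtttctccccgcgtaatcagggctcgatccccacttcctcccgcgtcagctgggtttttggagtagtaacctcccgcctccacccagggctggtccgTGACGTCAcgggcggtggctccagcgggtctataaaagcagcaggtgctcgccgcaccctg
Btc: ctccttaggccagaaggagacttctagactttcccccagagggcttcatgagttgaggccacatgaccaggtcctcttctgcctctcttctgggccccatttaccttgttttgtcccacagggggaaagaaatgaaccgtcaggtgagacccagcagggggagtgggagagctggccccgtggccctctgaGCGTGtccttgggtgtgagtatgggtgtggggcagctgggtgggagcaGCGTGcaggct
Tgfa: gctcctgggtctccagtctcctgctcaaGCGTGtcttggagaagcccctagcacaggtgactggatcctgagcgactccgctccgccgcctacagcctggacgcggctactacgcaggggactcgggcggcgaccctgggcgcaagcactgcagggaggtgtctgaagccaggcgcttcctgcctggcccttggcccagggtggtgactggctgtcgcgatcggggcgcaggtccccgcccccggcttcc
Egfr: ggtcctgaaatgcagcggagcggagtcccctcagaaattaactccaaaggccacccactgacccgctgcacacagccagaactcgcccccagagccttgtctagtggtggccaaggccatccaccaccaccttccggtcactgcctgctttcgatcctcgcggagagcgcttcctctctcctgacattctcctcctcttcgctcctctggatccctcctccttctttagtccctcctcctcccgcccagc

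The motifs searched were GCGTG, the core that AHR with its partner ARNT binds, TGACGTCA, the cyclic AMP response element, and TGANTCA, the site of AP-1 factors, none of which overlapped another. The Areg window held TGACGTCA, 61 to 54 bases before the start; 1.55% of 32851 promoter windows of this length hold it. Btc held GCGTG at 59 to 55 and at 11 to 7 bases before the start, and Tgfa held it at 222 to 218 bases; 28.2% of all windows hold it. TGANTCA, which 6.75% of windows hold, was in none of the 4, and the Egfr window held none of the 3 motifs. These are letter matches and no measure of binding. Ereg, Areg and Btc are neighbours on chromosome 5: Ereg spans chr5:91074622-91093646 and Areg chr5:91139599-91148432, with 45.952 kb between them, and Btc spans chr5:91357261-91402994, 208.828 kb beyond Areg. The other members lie on other chromosomes.

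Egfr was expressed by the stromal types and by almost no other, and its level there was nearly the same on both diets. APC stood highest: LFD APC had 201 CPM (183 to 221), HFD APC 207 CPM (195 to 218). Wt1-positive stromal cells followed, with 173 CPM (169 to 177) on LFD against 177 CPM (172 to 182) on HFD. The intervals of these neighbours did not overlap in either library, but in LFD free RNA could give APC 23.6 CPM and Wt1-positive stromal cells 2.91 CPM, so the LFD order of the pair is not settled, and by thinned shares of cells Wt1-positive stromal cells came first in LFD (30.1% against 29.0% of APC). In HFD it could give 3.36 and 1.29 CPM. Cycling cluster 8 stood at 119.5 and 126 CPM, mesothelial cells at 117 and 117 CPM, and cycling cluster 11 at 113 and 124 CPM. In LFD the intervals of neighbours among these 3 overlapped, and in HFD likewise. Outside the stroma levels were low. Endothelial cells had 7.07 and 3.57 CPM and macrophages 5.18 and 5.88 CPM. Of the named types outside the stroma with at least 50 cells in a library, LFD neutrophils (23.3 CPM) and HFD mural cells (16.2 CPM) stood highest. These values rested on 6 and 8 UMIs. ILC2 had 3 Egfr UMIs in LFD and 0 in HFD, which allows a level of up to 7.02 CPM by 3 UMIs. At least 1 Egfr UMI was found in 82.0% of LFD and 90.1% of HFD Wt1-positive stromal cells. With each cell thinned to 2000 UMIs the shares were 30.1% (28.6 to 31.7) and 26.3% (24.2 to 28.5), against 1.61% and 0.610% of endothelial cells, so the higher raw share in HFD went with a higher depth (median 17205 against 11329 UMIs per cell).

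The HFD to LFD ratio of the Egfr level was 1.02 (0.989 to 1.06) in Wt1-positive stromal cells, 1.00 (0.944 to 1.07) in mesothelial cells, 1.03 (0.921 to 1.14) in APC, 1.05 (0.958 to 1.16) in cluster 8 and 1.10 (0.998 to 1.21) in cluster 11. Each interval held 1, and none reached 1.5. Over all kept cells of a library Egfr was lower in HFD, at 104 against 122 CPM. That pool held fewer Wt1-positive stromal cells, 21.4% of HFD cells against 39.1% of LFD cells, and more plasma cells, 9.71% against 2.13%. Within the 3 clusters that make up the Wt1-positive stromal class the ratio was 1.12 (1.06 to 1.18), 0.928 (0.871 to 0.988) and 1.11 (1.03 to 1.20), so the class value averages small differences in opposite directions.

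**Figure D1:**
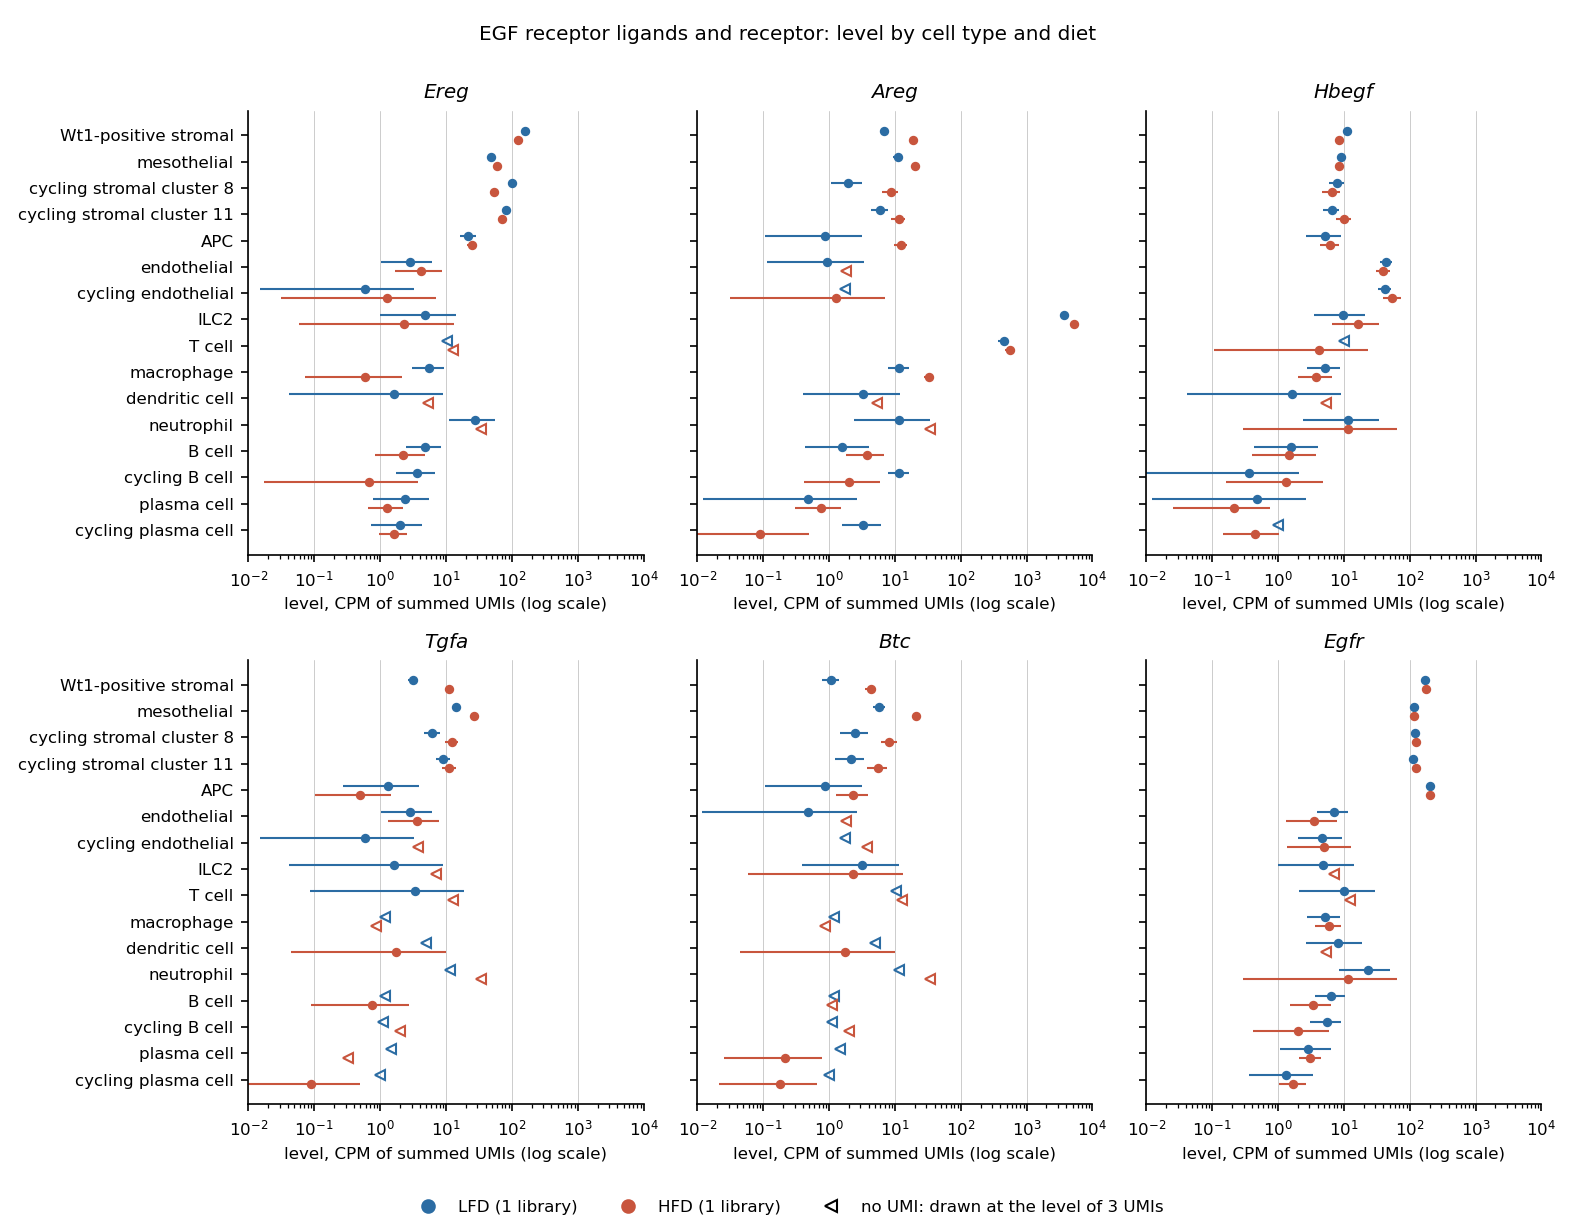
Level of each member in CPM of summed UMIs (log scale) in the 16 cell types that reached 50 cells on each diet. Circles give the LFD (blue) and HFD (red) library with the exact 95% Poisson interval, and open triangles stand at the level of 3 UMIs where no UMI was found. Egfr separates the 5 stromal types from the rest, Areg stands highest in ILC2, Hbegf in endothelial and cycling endothelial cells, and Tgfa and Btc in mesothelial cells in both libraries.

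Ereg stood highest in the Wt1-positive stromal cells. Of all Ereg UMIs, these cells held 75.2% on LFD and 63.2% on HFD, but 30.3% and 37.7% with cells assigned 1 by 1 to types by their markers. LFD cells had 159.7 CPM (156 to 163) and HFD cells 126 CPM (122 to 130.1). Next in LFD came cluster 8 at 101 CPM and cluster 11 at 80.2 CPM, ahead of mesothelial cells at 47.6 CPM. The APC level in LFD, 21.8 CPM, rested on 50 UMIs and did not differ beyond counting error from that of neutrophils, 27.2 CPM from 7 UMIs. In HFD the order was cluster 11 at 70.5 CPM, mesothelial cells at 58.9 CPM and cluster 8 at 53.2 CPM, the last pair with overlapping intervals, and APC followed with 150 UMIs. In LFD APC free RNA could account for 18.5 CPM of their level, as judged from the immunoglobulin UMIs found in them, and in HFD APC for 1.88 CPM.

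Ereg was unevenly spread over cells that carried the same name. A UMI was found in 34.5% of LFD and 35.9% of HFD Wt1-positive stromal cells, and the highest cell held 41 and 52 UMIs. With cells thinned to 2000 UMIs the order of the shares turned, to 17.1% (15.8 to 18.3) in LFD and 14.6% (12.95 to 16.4) in HFD, with overlapping intervals. Cells with at least 5 UMIs, 547 of 3634 in LFD and 263 of 1689 in HFD, held 79.5% and 81.3% of the UMIs. Egfr in the same cells was even: there, cells with at least 5 UMIs held 25.7% and 47.2%, while most cells had some. Among the 3 clusters of the class, Ereg stood at 197, 114 and 148 CPM in LFD and at 152, 109 and 93.2 CPM in HFD.

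The Ereg ratio was below 1 in 3 stromal types and above 1 in mesothelial cells and APC. In Wt1-positive stromal cells the HFD level was 0.788 times the LFD level (0.757 to 0.821), and in cluster 8 it was 0.524 times (0.460 to 0.597). In cluster 11 it was 0.879 times (0.776 to 0.995). In mesothelial cells it was 1.24 times (1.13 to 1.36), but 1.02 (0.934 to 1.11) without doublet removal, 1.14 (0.960 to 1.35) with the stricter filter of 2000 UMIs and 5% mitochondrial UMIs, and 1.10 (0.978 to 1.23) with cells assigned 1 by 1. In APC it was 1.15 times (0.826 to 1.61), which turned to 0.649 (0.615 to 0.685) with cells assigned 1 by 1. In the Wt1-positive stromal class the size depended on which cells were counted: the ratio was 0.775, 0.958 and 0.630 in its 3 clusters. More HFD than LFD cells of the class carried mesothelial marker UMIs. The summed level of the 9 mesothelial markers in the class was 159 CPM in LFD and 458 CPM in HFD, with none of the 9 at 0. In the 2829 LFD and 705 HFD cells with no UMI of Krt19, Msln or Upk3b, a split that also favours shallow cells, the Ereg level was 182 and 171 CPM, a ratio of 0.939 (0.893 to 0.988).

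Tgfa and Btc stood highest in mesothelial cells, and both were higher on HFD in mesothelial cells, Wt1-positive stromal cells and cluster 8. LFD mesothelial cells had 14.4 CPM (12.6 to 16.4) of Tgfa and HFD mesothelial cells 26.2 CPM (24.0 to 28.6), which is 1.82 times as much (1.56 to 2.14). For Btc the values were 5.68 CPM (4.57 to 6.97) against 21.1 CPM (19.1 to 23.2), and HFD stood at 3.72 times LFD (2.96 to 4.72). The summed level of the 9 mesothelial markers in the same cells was 1627 CPM in LFD and 2210 CPM in HFD. Mesothelial cells held 45.9% and 51.7% of Tgfa UMIs and 50.8% and 64.4% of Btc UMIs, in LFD and HFD. With cells assigned 1 by 1 the Btc shares were 24.6% and 41.0%. The neighbouring type in the Tgfa order was cluster 11 at 9.14 CPM in LFD and cluster 8 at 12.3 CPM in HFD, in both cases below mesothelial cells without overlap. For Btc the HFD intervals of mesothelial cells and cluster 8 (8.28 CPM) did not overlap. In LFD the type below mesothelial cells in the order, ILC2, rested on 2 UMIs, and by thinned shares of cells ILC2 stood first there (0.917%, 1 cell).

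Wt1-positive stromal cells had lower levels of both on either diet, and again more on HFD. Tgfa was 3.18 CPM (2.67 to 3.76) on LFD against 11.2 CPM (10.1 to 12.5) on HFD, 3.53 times as high (2.89 to 4.34). Btc went from 1.08 CPM (47 UMIs) on LFD to 4.30 CPM (125 UMIs) on HFD, 3.99 times as high (2.83 to 5.71). In cells of the class with no UMI of the 3 mesothelial markers the ratio was 2.78 (1.97 to 3.95) for Tgfa and 2.87 (1.70 to 4.87) for Btc. The 3 clusters of the class gave 2.02, 5.83 and 1.89 for Tgfa and 4.85, 2.44 and 8.06 for Btc, the last from 5 and 18 UMIs. The cluster with the ratio of 5.83 also had the highest summed mesothelial markers, 245 CPM in LFD and 642 CPM in HFD, and their part in its Tgfa was not tested. In cluster 8 the ratio was 1.97 (1.36 to 2.89) for Tgfa and 3.36 (1.95 to 6.02) for Btc. In cluster 11 it was 1.23 (0.869 to 1.73) for Tgfa, whose interval held 1, and 2.56 (1.38 to 4.90) for Btc. APC had 3 Tgfa UMIs in each library, and 2 and 14 Btc UMIs. Macrophages had none of either.

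Most mesothelial cells with Tgfa or Btc held 1 UMI of it. A Tgfa UMI was found in 16.2% of LFD and 31.5% of HFD mesothelial cells, and a Btc UMI in 5.99% and 21.5%. The highest mesothelial cell held 4 Tgfa UMIs in each library, and 4 Btc UMIs in LFD and 7 in HFD. Of the 252 HFD mesothelial cells with Btc, 155 had 1 UMI, 57 had 2, 33 had 3 to 4 and 7 had 5 or more. With cells thinned to 2000 UMIs, the share of mesothelial cells with Tgfa was 2.87% and 4.80%, and with Btc 0.782% and 4.88%. The binomial intervals for Tgfa overlapped, and those for Btc, 0.358 to 1.48% and 3.72 to 6.28%, did not. In endothelial cells the thinned share with Tgfa was 0.323% and 0.915%, and with Btc 0.323% and 0%, at a median depth of 2833.5 and 2546.5 UMIs.

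**Figure D2:**
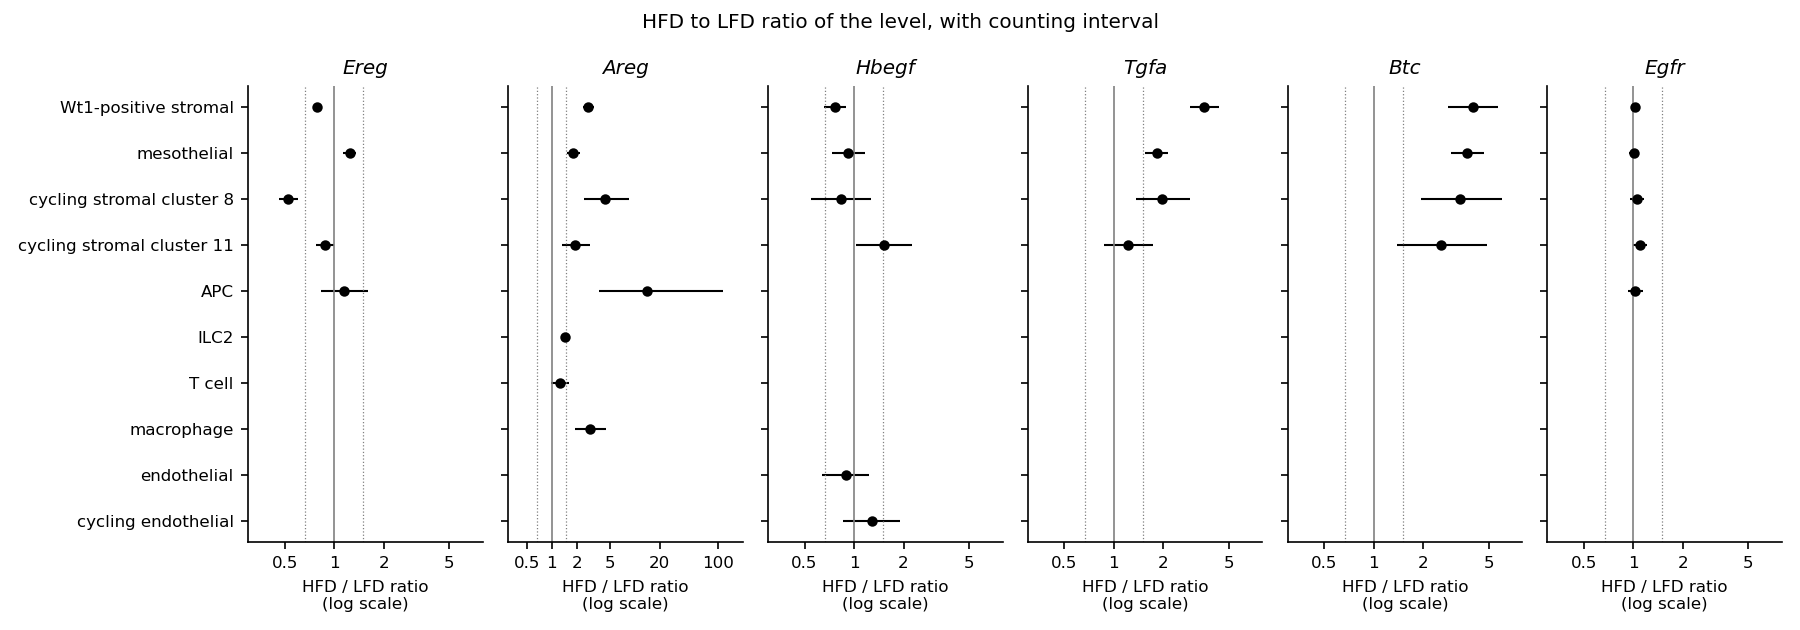
HFD to LFD ratio of the level of each member (log scale) in the types where it had at least 50 UMIs over both libraries, with the exact 95% interval for counting error. The solid line stands at 1 and the dotted lines at 1.5-fold either way. Tgfa, Btc and Areg lie to the right of 1 in Wt1-positive stromal cells, mesothelial cells and cluster 8, and Egfr lies at 1.

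Hbegf showed another distribution. Its UMIs were most numerous in Wt1-positive stromal cells, which held 50.9% (LFD) and 34.0% (HFD) of them (25.3% and 24.8% with cells assigned 1 by 1), but its level was highest in vascular cells. Endothelial cells had 43.9 CPM on LFD (93 UMIs) and 39.3 CPM on HFD (66 UMIs), and cycling endothelial cells 41.9 CPM and 54.0 CPM, with overlapping intervals. Their order was not stable: cycling endothelial cells came first in LFD by the mean over cells, and neutrophils by thinned shares of cells, from 3 of 22 cells. Mural cells, present with 72 cells in HFD and 11 in LFD, had 54.8 CPM in HFD. They also held the endothelial gene Pecam1 at 893 CPM there, against 1365 CPM in HFD endothelial cells, and its part in their Hbegf was not tested. LFD Wt1-positive stromal cells had 11.2 CPM (10.2 to 12.2) of Hbegf, HFD ones 8.52 CPM (7.50 to 9.65), and the ratio was 0.763 (0.652 to 0.891). Mesothelial cells gave a ratio of 0.923 (0.735 to 1.16), cluster 8 0.839 (0.550 to 1.27), and cluster 11 1.52 (1.03 to 2.25). The cluster 11 value rested in part on single cells: without the cell with most Hbegf UMIs in each library it was 1.40 (0.927 to 2.13). In endothelial cells the ratio was 0.895 (0.643 to 1.24) and in cycling endothelial cells 1.29 (0.860 to 1.91), and both intervals held 1.

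Areg stood highest in ILC2 and next in T cells, and not in all lymphoid cells: B cells had 1.58 and 3.74 CPM and plasma cells 0.482 and 0.746 CPM. ILC2 made up 1.19% of LFD and 1.28% of HFD cells and held 75.1% and 61.3% of all Areg UMIs. With the stricter filter of 2000 UMIs and 5% mitochondrial UMIs these shares were 61.3% and 22.4%. LFD ILC2 had 3672 CPM (3523 to 3826) and HFD ILC2 5308 CPM (5092 to 5531), which is 1.45 times as much (1.36 to 1.53). Nearly every ILC2 took part: 91.9% and 94.1% held a UMI, 89.0% and 91.7% after thinning, and the median cell had 2298 and 4263 CPM. The interquartile range ran from 944 to 5808 CPM in LFD and from 2081 to 7006 CPM in HFD, so the cells of the libraries overlapped widely. ILC2 with a UMI of Il5 or Il13 stood at 3963 and 6157 CPM, above those with neither at 2311 and 3020 CPM. In ILC2 with no Cd3 UMI the levels were 3258 and 5455 CPM.

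T cells followed. LFD T cells had 447 CPM (373 to 530.1) and HFD T cells 559 CPM (468 to 663), and the interval of their ratio of 1.25 (0.976 to 1.61) held 1. T cells with UMIs of Cd3 and of Foxp3, the factor of regulatory T cells, and none of Il5 or Il13, numbered 25 and 18, and 16 and 13 of them held Areg, at 664 and 1024 CPM. In T cells with Cd3 but no Foxp3, Il5 or Il13 UMI, 7 of 51 and 8 of 51 held Areg, at 356 and 365 CPM. A missing Foxp3 UMI at a median of 2027 and 1942 UMIs per T cell does not show that the cell lacked Foxp3. Natural killer cells, 50 in HFD, had 128 CPM there from 21 UMIs.

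Areg was also found in the stroma, in few cells and at higher levels on HFD. LFD Wt1-positive stromal cells had 6.77 CPM (6.02 to 7.59) of Areg and HFD ones 18.8 CPM (17.2 to 20.4), which is 2.77 times as much (2.40 to 3.20). Mesothelial cells had 177 UMIs on LFD (11.04 CPM) and 397 on HFD, a level 1.81 times as high (1.51 to 2.17). In cluster 8 the ratio was 4.42 (2.46 to 8.43), from 15 and 54 UMIs. The levels of Wt1-positive stromal cells lay above the 0.748 and 0.460 CPM that free RNA could give them, and above the 0.943 CPM of LFD endothelial cells, where HFD cells had no Areg UMI. The LFD level of cluster 8, 1.94 CPM (1.09 to 3.21), was not apart from the 1.70 CPM that free RNA could give there, and its ratio rests on that level.

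Only 97 of 3634 LFD and 98 of 1689 HFD Wt1-positive stromal cells held an Areg UMI, and after thinning 0.828% and 2.15% did. A few of them carried most of it. Cells with at least 5 Areg UMIs, 19 in LFD and 41 in HFD, held 62.8% and 80.6% of the UMIs, and among mesothelial cells 13 and 26 such cells held 58.8% and 78.6%. The number 5 was chosen after the values were seen. No such cell held a UMI of Il5 or Il13, and 1 HFD cell of each type held a UMI of Ptprc, the pan-leukocyte gene CD45. The ILC2 genes Il1rl1 and Gata3 were each found in 3 of the 26 HFD mesothelial cells (11.5%), against 4.91% and 4.46% of those with no Areg UMI, and in 2 and 3 of the 41 HFD Wt1-positive stromal cells (4.88% and 7.32%), against 2.83% and 3.96%. The part of ILC2 RNA in these cells was not tested. Ereg was present in 12 of 19 and 19 of 41 of these Wt1-positive stromal cells, and in 33.9% and 34.9% of those with no Areg UMI. In mesothelial cells Ereg was present in 8 of 13 and 16 of 26, against 18.6% and 22.6%. The cells with most Areg had a slightly higher median depth in Wt1-positive stromal cells, 13325 against 11288 UMIs in LFD and 18206 against 17154 UMIs in HFD, and the part of depth in the Ereg shares was not tested.

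In APC, macrophages, cluster 11 and cycling B cells, single cells held a large part of the Areg UMIs of a library. In APC 2 LFD and 73 HFD UMIs gave a ratio of 13.9 (3.72 to 117), but 43 of the 73 UMIs came from 1 cell, and without the cell with most Areg in each library the ratio was 11.4 (1.89 to 464). With cells assigned 1 by 1 to types by their markers, it was 1.61 (1.32 to 1.95). The LFD level, 0.873 CPM, lay under the 6.06 CPM that free RNA could give there. In macrophages, 29 and 113 UMIs gave 2.87 (1.89 to 4.48), and 2.36 (1.41 to 4.12) without the top cells, the HFD one with 49 UMIs. In cluster 11 the ratio was 1.93 (1.32 to 2.87), and 1.49 (0.946 to 2.35) without the top cells. Cycling B cells had 31 LFD and 3 HFD UMIs, and 28 of the 31 were in 1 cell. Without the top cells their ratio of 0.176 became 0.606 (0.0115 to 7.55), whose interval held 1.

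**Figure D3:**
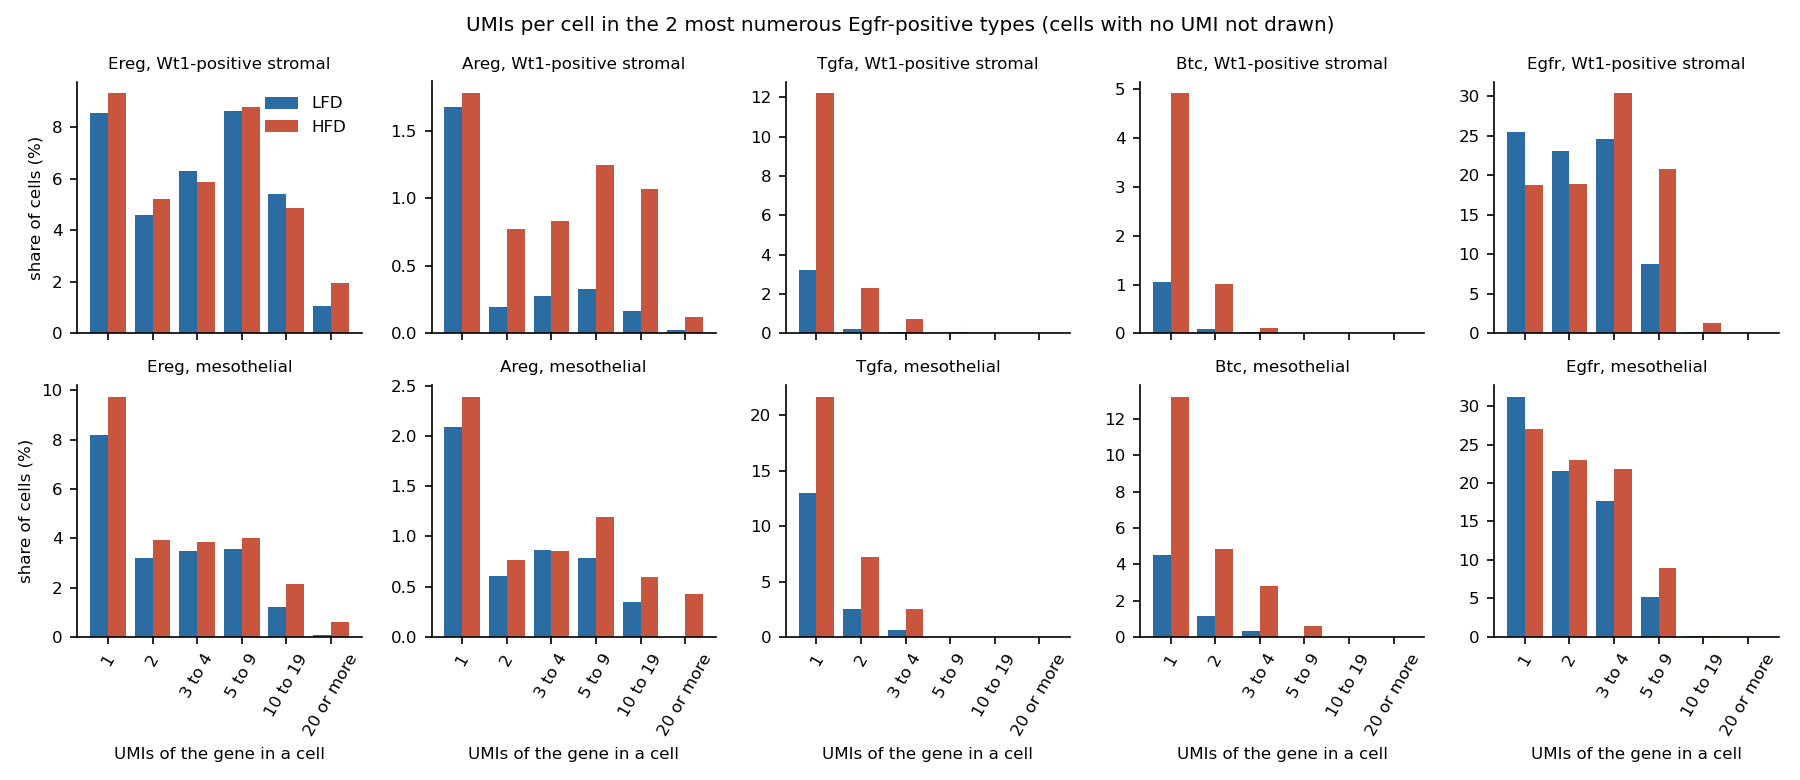
Share of cells (%, linear axes that differ between panels and start at 0) by the number of UMIs of a gene in a cell, for Wt1-positive stromal cells (top) and mesothelial cells (bottom), LFD in blue and HFD in red; cells with no UMI are not drawn and there are no error bars. Ereg and Areg spread out to 20 or more UMIs in a cell, while Tgfa and Btc sit mostly at 1 UMI with taller HFD bars, and HFD cells of both types were deeper.

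Ligands and receptor were often in the same stromal cell. An Ereg and an Egfr UMI together were found in 29.2% of LFD and 33.2% of HFD Wt1-positive stromal cells, where the product of the shares of each gene is 28.3% and 32.4%. Tgfa and Egfr shared 12.8% of LFD and 26.1% of HFD mesothelial cells, with products of 12.2% and 25.4%. Each share was thus close to its product. In ILC2 the pair of Areg and Egfr was found in 3 LFD cells and in no HFD cell, where Egfr itself was near the level that free RNA could give (3.43 CPM in LFD). At least 2 of the 5 ligands were found in 6.30% of LFD and 14.6% of HFD Wt1-positive stromal cells and in 9.82% and 24.1% of mesothelial cells. These raw shares carry the depth difference between the libraries, 11329 against 17205 and 13542 against 16802.5 median UMIs per cell.

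Counted by a difference of at least 1.5-fold among genes with at least 50 UMIs over both libraries, the members were set beside all genes, with no test behind the counts. In Wt1-positive stromal cells 3 of 6 members (Areg, Tgfa, Btc) were higher in HFD and none lower, where 14% of 12858 genes passed. In mesothelial cells the same 3 of 6 were higher, where 11.7% of 11792 genes passed, but Tgfa was under 1.5-fold in 2 of 8 alternatives, at 1.48 with the stricter filter and 1.34 without integration. In cluster 8 these 3 were higher and Ereg lower, where 12.9% passed, and in cluster 11 Areg, Btc and Hbegf were higher, where 12.1% passed. Of the cluster 11 members, Hbegf was past 1.5-fold in only 1 of its 4 alternatives (1.23 to 2.01), and Areg was at 1.49 without the top cells. In APC 1 of 3 measured members, Areg, was higher, where 20.7% passed. In macrophages Areg, the only member measured, was higher, where 11.7% of 7930 genes passed. The only member measured in ILC2 and in T cells, Areg, did not pass, where 30.2% and 21.9% of genes did. In ILC2 it passed in 1 of 7 alternatives, at 1.59 without doublet removal. Hbegf, the only member measured in endothelial and cycling endothelial cells, did not pass either, where 21.5% and 27.4% of genes did. The median gene was itself 1.10 times as high in HFD mesothelial cells, 1.09 in clusters 8 and 11, 1.10 in endothelial cells, 1.08 in APC and 1.06 in Wt1-positive stromal cells. Of the genes that passed, 48.7% were higher in HFD Wt1-positive stromal cells, 74.3% in mesothelial cells, 69.0% in cluster 8, 74.0% in cluster 11, 71.6% in endothelial and 62.5% in cycling endothelial cells. With counts scaled by the median ratio of genes these shares were 34.8%, 53.4%, 47.9%, 53.5%, 46.4% and 47.9%.

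The other genes of the pathway, a list of 48, were measured next, and in each stromal type the share of its genes that passed was above that of all genes on the CPM scale. In Wt1-positive stromal cells 12 of 44 measured genes were higher and 1 lower, 29.5% against the 14% of all genes, with a median ratio of 1.23 against 1.06. In mesothelial cells it was 10 of 40 and none lower, 25% against 11.7%, with a median of 1.33 against 1.10. Cluster 8 had 8 of 39 (20.5%), cluster 11 had 11 of 39 (28.2%) and APC 13 of 37 (35.1%), with none lower. Under median-ratio scaling the numbers higher were 9 in Wt1-positive stromal cells, with 2 lower, and 5 in mesothelial cells, 5 in cluster 8, 9 in cluster 11 and 10 in APC, with none lower. Of all genes 9.74% passed in mesothelial cells and 10.97% in cluster 8 under that scaling, so 5 of 40 and 5 of 39 were near the share of all genes there. In Wt1-positive stromal cells 13.96% of all genes passed under it, in cluster 11 10.0% and in APC 19.8%.

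Among the 12 receptor and pathway inhibitors, 5 of 12 in Wt1-positive stromal cells, 6 of 11 in mesothelial cells, 6 of 11 in cluster 8, 8 of 11 in cluster 11 and 8 of 11 in APC were higher in HFD and none lower, on the CPM scale. Of all genes 14%, 11.7%, 12.9%, 12.1% and 20.7% passed in these types, in either direction. Under median-ratio scaling, counted after the first values were seen, 4, 4, 4, 6 and 6 inhibitors were higher in that order and none lower. Dusp4, a phosphatase that inactivates ERK, stood at 2.47 CPM on LFD and 10.52 CPM on HFD in Wt1-positive stromal cells (4.26 times, 3.41 to 5.35) and was 2.72 times as high in HFD mesothelial cells. Spry2, a Sprouty inhibitor of RAS signalling, was 20.6 and 43.3 CPM in Wt1-positive stromal cells (2.10 times, 1.93 to 2.29), 20.8 and 50.5 CPM in mesothelial cells (2.42 times, 2.14 to 2.75) and 22.7 and 81.2 CPM in APC (3.57 times, 2.68 to 4.85). Spry4 was 2.60, 1.94 and 2.86 times as high in these types, and the ERK phosphatase Dusp6 2.06, 1.78 and 1.53 times. In APC, Errfi1, which binds and inhibits the EGF receptor itself, was 92.6 and 186 CPM (2.01 times, 1.74 to 2.34), and Dusp5 was 4.25 times as high (1.97 to 10.9). Among transcriptional targets, 4 of 8 in Wt1-positive stromal cells were higher: Etv4 (3.05 times), Fosl1 (1.78), Etv5 (1.72) and Plaur (1.57), of which 3 remained past 1.5-fold under that scaling. In mesothelial cells 2 of 7 targets were higher, in cluster 8 1 of 7, in cluster 11 2 of 7 and in APC 1 of 7, and under that scaling 0, 0, 2 and 1, with none lower on either scale. Immediate early genes, which also respond to cell dissociation, were counted beside them. In Wt1-positive stromal cells 1 of 15 was higher (Hspa1b, a heat shock gene, 4.04 times) and 1 lower (Fosb, 0.613 times), with a median ratio of 0.875, and in mesothelial cells 1 of 15 was higher (Hspa1b, 3.54 times), with a median of 0.959. Cluster 8 had 3 of 15 higher, cluster 11 had 2 and APC 4 (Hspa1b 2.37 times, Klf4 1.99, Nr4a1 1.60, Atf3 1.51), with none lower, and their part in the values of the inhibitors was not tested. Under median-ratio scaling the numbers higher were 1 in Wt1-positive stromal cells, with 3 lower, 1 in mesothelial cells, 2 in cluster 8, with 1 lower, 1 in cluster 11 and 3 in APC.

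The remaining ligands and receptors differed in direction. Epgn, the EGF receptor ligand epigen, was lower in HFD Wt1-positive stromal cells, at 0.653 against 2.59 CPM. Nrg1, a neuregulin that binds ErbB3 and ErbB4, was 16.98 CPM on LFD and 29.0 CPM on HFD there (1.71 times, 1.55 to 1.89), and 1.83 times as high in HFD mesothelial cells. Macrophages had more of it in both libraries and less on HFD, 70.2 CPM (60.2 to 81.3) on LFD and 47.9 CPM (40.8 to 55.8) on HFD. Erbb2, the partner receptor without a ligand of its own, was 6.13 and 6.39 CPM in Wt1-positive stromal cells and 6.80 and 6.85 CPM in mesothelial cells. Erbb4 had no UMI in either. Adam17, the protease that releases most of these ligands, was 38.8 and 39.7 CPM in Wt1-positive stromal cells and 35.2 and 46.8 CPM in mesothelial cells. Adam10, of the same family, was 131 and 171 CPM in Wt1-positive stromal cells and 207 and 277 CPM in mesothelial cells. Rhbdf2, which guides Adam17 to the surface, was 1.51 times as high on HFD in Wt1-positive stromal cells. Under median-ratio scaling none of the 4 measured genes of ligand shedding passed in either type.

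Outside the stroma the list was counted type by type, with no test between types. In macrophages 2 of 30 genes were higher (Egr1 1.79 times, Plaur 1.65 times) and 1 lower (Etv5, 0.627 times), 10% against the 11.7% of all genes. In ILC2 3 of 12 were higher (among them Dusp5, 2.47 times, and Phlda1, 1.87) and 2 lower (Nras 0.633, Ier3 0.345), and of 12 measured immediate early genes 3 were higher (Nr4a1 3.34 times, Zfp36 2.80, Btg2 2.47) and 1 lower (Klf4, 0.473), 33.3% in all, near the 30.2% of all ILC2 genes. In T cells 2 of 5 pathway genes were higher and none lower, where 21.9% of all genes passed, and at a minimum of 100 UMIs no pathway gene was left to count. In endothelial cells 6 of 32 were higher and none lower, 18.8% against 21.5% of all genes. Under median-ratio scaling endothelial cells had 3 higher and 3 lower, where 19.4% of all genes passed. In cycling endothelial cells 9 of 28 were higher and 1 lower, 35.7% against 27.4% of all genes. Under that scaling 5 of the 28 were higher and 1 lower, below the 27.3% of all genes that passed.

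**Figure D4:**
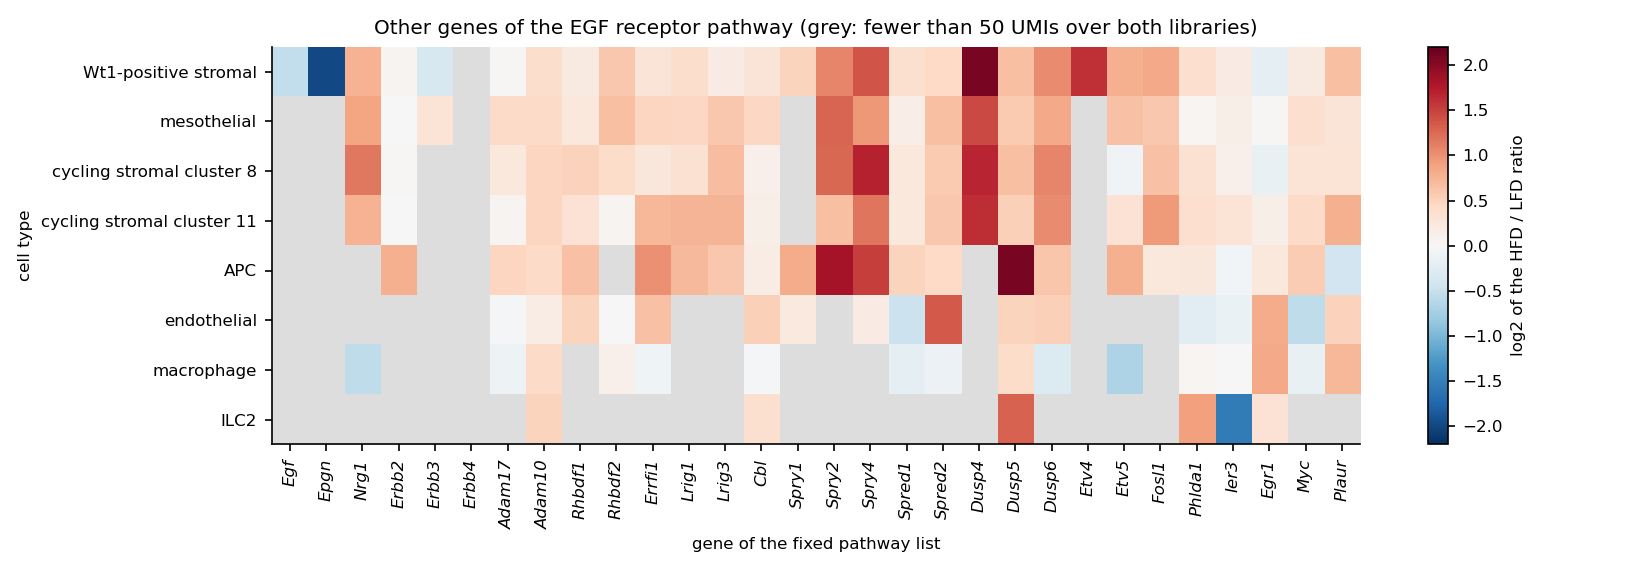
Log2 of the HFD to LFD ratio of CPM (colour, red higher and blue lower in HFD) for 30 of the 48 pathway genes, the adaptors, kinases and Nrg2 to Nrg4 left out, in 8 cell types; grey cells had fewer than 50 UMIs over both libraries, and no error is drawn. The Spry and Dusp columns are red in all 5 stromal rows wherever they were measured.

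Over the 16 types of both libraries (32 points, 13109 genes) each member was matched with the genes whose level, as log2(CPM + 1), followed it most closely. The points share libraries and depth, and the correlations are descriptions. Ereg was closest to Unc5c and Slc16a4 (Pearson r = 0.947 for both) and Egfr to Bicc1 (0.969) and Gas1 (0.967). Areg was closest to Gata3 (0.906), Cxcr6 (0.898) and Il1rl1 (0.896), the master factor, a chemokine receptor and the IL-33 receptor of ILC2. Gata3 and Il1rl1 are also among the markers that named the ILC2, the type where Areg is highest, so their match was largely set beforehand. Tgfa was closest to Aplp1 (0.908) and Btc to Gsta4 (0.904). Hbegf was closest to Asah2 (0.906).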

How the data were processed

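Live eYFP+ stromovascular cells of gWAT were sequenced with 10x Genomics 3' v3 chemistry, 1 library per diet. The deposited matrices hold raw UMI counts per gene and barcode, not normalized, which the authors made with Cell Ranger 4.0.0 per the file headers; the submitters' processing notes also name STAR, Seurat 4.1.0, bcl2fastq 2.17.1.14 and build mm10. Positions are lookups in GENCODE M21 (GRCm38, the assembly of mm10). Only called cells were analysed, so RNA of empty droplets was not measured here.

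Cells with 500 to 40000 UMIs, at least 100 genes and under 12.5% mitochondrial UMIs were kept, and Scrublet (scanpy 1.11.5) doublets were removed at 0.8% per 1000 barcodes (922 LFD, 658 HFD cells). Integration used Seurat 5.3.0 under R 4.3.3 with Matrix 1.6.5, and took 1986 variable genes, the members and listed genes left out, 30 principal components and resolution 0.8. Clusters took a name when at least 3 markers and 50% of a list were in 10% or more of cells at above 2 times the median cluster. That rule was settled after clusters had been seen, and the members and lists were chosen with earlier results of these data known.

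UMIs were summed per library and type into CPM. Levels have exact Poisson, ratios exact conditional binomial and shares Clopper-Pearson 95% intervals (scipy 1.17.1), computed with numpy 2.4.6 and pandas 2.3.3 and drawn with matplotlib 3.10.9. They cover counting error only. A ratio needed 20 UMIs over both libraries and 50 cells on each diet. The level that free RNA could give a type was taken from its immunoglobulin UMIs (3 genes). Cells were thinned to 2000 UMIs for shares of cells. The intervals and the fold call were checked on simulated counts, drawn as independent Poisson values. That check does not cover UMIs gathered in few cells, and the other steps were not simulated. The text names the members, the fixed pathway and immediate early lists, and the 3 genes closest to each member in pattern. Alternatives were other filters, doublet treatment, resolution, integration, cell assignment, scaling and count minimum, and, chosen after seeing the data, leaving out the cell with most UMIs, single clusters, and cells without mesothelial marker UMIs.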

Additional observations from a re-analysis of the deposited data

Results flagged for a closer look

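Of the members, 3 had a level higher on HFD in 1 cell type and lower on HFD in another, with neither interval of the ratio reaching 1. The differences were not tested, because each diet has 1 library. For Ereg the ratio in mesothelial cells (1.24) was 2.36 times that in cycling cluster 8 (0.524); the former was 1.02 (0.934 to 1.11) without doublet removal. For Hbegf the ratio in cycling cluster 11 (1.52) was 1.99 times that in Wt1-positive stromal cells (0.763); the interval of the former held 1 without the cell with most UMIs in each library (0.927 to 2.13). For Areg the ratio in APC (13.9) was 79.3 times that in cycling B cells (0.176), and both ends rested mostly on 1 cell, with 43 of 73 UMIs in APC and 28 of 31 in cycling B cells. With cells assigned 1 by 1 to types, the APC ratio was 1.61, and without the cell with most UMIs in each library the cycling B cell ratio was 0.606 (0.0115 to 7.55).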

How the results depend on the processing

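No paired analysis was possible because each diet has 1 library; leaving out a replicate was not possible either. Tgfa, Btc and Areg stayed above 1 in Wt1-positive stromal and mesothelial cells in every alternative run: Tgfa 1.89 to 5.83 and 1.34 to 1.94, Btc 2.15 to 8.06 and 3.40 to 4.03, Areg 2.17 to 3.67 and 1.54 to 3.795. Mesothelial Tgfa fell under 1.5-fold with the stricter filter of 2000 UMIs and 5% mitochondrial UMIs (1.48) and without integration (1.34). Areg in ILC2 was 1.59 without doublet removal. Ereg in Wt1-positive stromal cells was below 1 in all 12 alternatives: 0.735 with median-ratio scaling, 0.658 with the stricter filter, 0.943 without integration, 0.944 with cells assigned 1 by 1, 0.958 and 0.630 in clusters 2 and 4 alone, and 0.939 in cells without mesothelial marker UMIs. In cluster 11 it turned to 1.12 with the stricter filter. Hbegf in Wt1-positive stromal cells was 0.906 with cells assigned 1 by 1 and 0.927 in cluster 4 alone. Egfr in these cells was 0.955 with median-ratio scaling, 1.08 without integration, 1.12, 0.928 and 1.11 in clusters 1, 2 and 4, and 1.13 in cells without mesothelial marker UMIs. The causes were not tested.

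The share of a member's UMIs held by a type moved with the cells kept and with their names. For Ereg in Wt1-positive stromal cells it was 70.7% (LFD) and 59.1% (HFD) without doublet removal, 65.4% and 56.0% with the stricter filter, 76.8% and 60.6% without integration and 30.3% and 37.7% with cells assigned 1 by 1. For Egfr in the same cells it was 61.8% and 46.3%, 55.8% and 41.9%, 70.0% and 45.0%, and 34.0% and 33.7% in that order, and 62.8% and 48.5% at resolution 0.3. For Areg in ILC2 it was 61.3% and 22.4% with the stricter filter, and 77.7% in LFD with cells assigned 1 by 1. For Hbegf in Wt1-positive stromal cells it was 38.6% and 22.7% with the stricter filter, 25.3% and 24.8% with cells assigned 1 by 1, and 29.5% in HFD without integration. For Tgfa in mesothelial cells it was 37.0% in LFD and 61.8% in HFD without integration, and in HFD 47.7% without doublet removal, 43.5% with the stricter filter and 55.5% at resolution 0.3. For Btc in mesothelial cells it was 26.8% in LFD without integration, 60.5% in HFD without doublet removal, and 24.6% and 41.0% with cells assigned 1 by 1.

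The number of pathway genes past the fold was 8 in APC, 2 in ILC2, 0 in T cells and 5 in cycling endothelial cells at a minimum of 100 UMIs, where T cells had no pathway gene left to count, and 9 in ILC2 and 9 in T cells at 20 UMIs. With median-ratio scaling it was 6 in cycling endothelial cells, 5 in cluster 8 and 5 in mesothelial cells. Of 223 alternatives for members in other types, 193 moved by less than the counting interval, 29 moved by more and 1 turned the direction of a called value (Ereg in cluster 11, above). With cells assigned 1 by 1, Areg in APC moved from 13.9 to 1.61 and Ereg in APC from 1.15 to 0.649. Of 24 alternative orders of the types by level, 5 had another type first: with thinned shares of cells Wt1-positive stromal cells for Egfr, ILC2 for Btc and neutrophils for Hbegf in LFD and cycling endothelial cells in place of mural cells for Hbegf in HFD, and by the mean over cells cycling endothelial cells for Hbegf in LFD. Cycling clusters 8 and 11 had no value under other clusterings, and T cells none at resolution 0.3 or without integration.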

Other observations

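The cluster without a name, 66 LFD and 108 HFD cells led by hemoglobin and epididymal genes such as Hbb-bs, Lcn8 and Gpx5, held 11 and 22 Egfr UMIs, 115 and 177 CPM. Its cells entered no comparison. Mural cells, too few in LFD to compare, held 5 Hbegf UMIs in 11 LFD cells and 27 in 72 HFD cells.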
